A study of Mus musculus with 6 samples.

Results

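The isoforms of CaMKII, NFAT and PLC-beta, 3 protein families of the calcium branch of WNT signaling, were followed in mouse esophageal and stomach organoids. Every non-control probe whose gene name in the scanner files was *Camk2a*, *Camk2b*, *Camk2d*, *Camk2g*, *Nfatc1*, *Nfatc2*, *Nfatc3*, *Plcb1*, *Plcb3* or *Plcb4* was taken, which gave 25 of 55681 probes and 10 of 34298 gene names. The data are 6 single-color microarrays of organoids at passage 0, 3 of the esophagus and 3 of the stomach. The labels number the arrays of each tissue 1, 2 and 4, which is read here as the mouse of origin. Esophageal organoids came from esophageal tissue and stomach organoids from glands of the corpus. The labels give neither the age nor the strain of these mice. The methods describe wild-type C57BL/6 females and transgenic lines, and euthanasia at 14 to 20 weeks, without saying which mice gave these organoids. All arrays are labelled as controls and none had a further treatment. The harvest was on day 8 of culture, and on day 7 for the stomach of mouse 4. Both media held EGF, noggin, FGF-10, a TGF-beta receptor kinase inhibitor and a ROCK inhibitor. The stomach medium also held WNT3A and R-spondin1 as conditioned media and gastrin, and the esophagus medium held forskolin in place of these. Tissue, medium and method of isolation cannot be told apart in any comparison below.

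In the calcium branch of WNT signaling, a WNT ligand on a frizzled receptor acts through heterotrimeric G proteins on phospholipase C-beta, which splits a membrane phosphoinositide into diacylglycerol and inositol trisphosphate. Inositol trisphosphate opens calcium channels of the endoplasmic reticulum, and calcium bound to calmodulin then switches on the kinase CaMKII and the phosphatase calcineurin. Calcineurin removes phosphates from NFAT transcription factors, which moves them into the nucleus. Outside WNT signaling, phospholipase C-beta also serves many other Gq-coupled receptors, among them those for gastrin and acetylcholine in the stomach. The CaMKII alpha and beta subunits are best known from neurons, and the delta and gamma subunits occur in most tissues.

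The arrays were close in quality and the tissues stood apart by their epithelial markers. The scanner software flags spots as well above background, and 45.5% to 47.3% of non-control spots had this flag on esophagus arrays and 46.7% to 51.1% on stomach arrays, with none saturated. All 6 squamous markers were higher in the esophagus and all 8 columnar markers in the stomach, with median log2 fold changes of 11.15 and -9.60. No marker of fibroblasts, smooth muscle, immune cells or endothelium passed the test in either direction (0 of 6, 0 of 5, 0 of 6 and 0 of 4). In neither tissue did all 3 arrays detect any of the 6 fibroblast or 5 smooth muscle markers, whereas 2 of 6 immune markers (*Cd3e*, *Cd68*) and 2 of 4 endothelial ones (*Pecam1*, *Kdr*) were detected throughout. Of the specialized gastric cells, 3 of 3 chief cell markers, 2 of 3 on the parietal list (*Gif*, *Atp4a*) and 1 of 4 tuft cell markers (*Avil*) were higher in the stomach, and 0 of 5 enteroendocrine markers passed the test in either direction. Of 7 markers of neurons and enteric glia, *Elavl4* was higher in the esophagus and *Snap25* in the stomach. The summed level of a list, on the log2 scale, was 6.87 to 6.99 on esophagus and 13.25 to 14.78 on stomach arrays for chief cells and 6.42 to 6.60 and 11.38 to 14.12 for the parietal list. The latter is carried by *Gif* (stomach mean 13.04), in mice a product of chief cells, whereas *Atp4a*, a subunit of the parietal proton pump, had a stomach mean of 6.06. The sum was 6.80 to 7.23 and 9.45 to 10.52 for tuft cells, 7.55 to 8.01 and 7.49 to 8.50 for enteroendocrine cells, and 12.79 to 13.62 and 13.95 to 15.39 for neurons and glia. *Trpm5*, *Pou2f3* (tuft), *Atp4b* (parietal), *Sst*, *Gast* (enteroendocrine), *Uchl1* and *Sox10* (neurons and glia) were above background on no array, and the part of these cells in the results was not tested. In such bulk RNA, fewer cells of a type and less RNA per cell cannot be told apart.

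The 60-base probes decide which transcripts each value speaks for, so those on which the isoform results turn are shown 5′ to 3′ as deposited. The longest run of bases that any pair of the 25 probes shared was 11, and the number of G or C bases ran from 18 to 33. The first set holds both probes of *Camk2b*, of which 1 gave a clear signal, and the *Camk2d* probes with the largest and the smallest of the 3 differences that passed the test. Only the first 30 bases are given for A_55_P2109377 and A_52_P428745.
Camk2b A_55_P2109377: tttctgagccttgtaggtgtacaaaactta
Camk2b A_55_P2150578: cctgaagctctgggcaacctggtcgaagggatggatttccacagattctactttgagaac
Camk2d A_52_P428745: ccagcacagtgaaattacaccttcatcatc
Camk2d A_55_P1978830: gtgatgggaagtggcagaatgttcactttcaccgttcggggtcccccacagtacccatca

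The second set holds both probes of *Nfatc2*, of which 1 was called, and the 3 probes of *Plcb1*, all of them called. Only the first 30 bases are given for A_55_P1967978 and A_55_P2173313.
Nfatc2 A_55_P1967978: cacattcctatgcaaaacgattttaatctc
Nfatc2 A_52_P628171: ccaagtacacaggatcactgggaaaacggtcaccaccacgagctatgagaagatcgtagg
Plcb1 A_55_P2173313: gtggcatgatgtttcttccacttgtaattt
Plcb1 A_51_P284665: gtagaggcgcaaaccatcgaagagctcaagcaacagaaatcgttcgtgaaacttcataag
Plcb1 A_55_P1980730: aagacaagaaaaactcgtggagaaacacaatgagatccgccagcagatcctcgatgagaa

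Called and uncalled isoforms occurred in each family. *Plcb1*, *Camk2b*, *Camk2d*, *Nfatc2* and a second transcript of *Nfatc1* were higher in stomach organoids, *Camk2g* and *Plcb4* were higher in esophageal organoids by smaller amounts, and *Camk2a*, *Nfatc3* and *Plcb3* did not pass the test. A probe is said to be called when its limma p-value was under 0.05 after Benjamini-Hochberg adjustment across the 55681 probes. Fold changes are on the log2 scale, esophagus minus stomach. Of the 25 probes, 12 were called, against 12.2% of all probes. Of these, 9 were higher in the stomach, where the share among all probes was 6.22%, and 3 in the esophagus, where it was 5.94%. Counted by family, 5 of 10 CaMKII probes, 2 of 7 NFAT probes and 5 of 8 PLC-beta probes were called. These counts leave out *Nfatc4* and *Plcb2*, which are not members and were not called (limma adjusted p = 0.74 and 0.624 on their reference probes). The members were chosen with earlier results of these data known. Brightness bears on such shares, since 25.1% of the probes that all 3 arrays of a tissue detected above background were called. On 15 of the 25 probes the values of the tissues did not overlap, against 28.6% of all probes. By the rule in the methods, an unadjusted p under 0.05 and a change of 1.5-fold, 12 member probes and 18.1% of all probes passed. Represented by the probe with the highest mean, called here the reference probe, 6 of 10 genes were called, against 14.9% of gene names. Leaving out any 1 array lowered the 3 probes higher in the esophagus to 0 or 1, and the mouse as a block lowered them to 1.

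**Figure D1:**
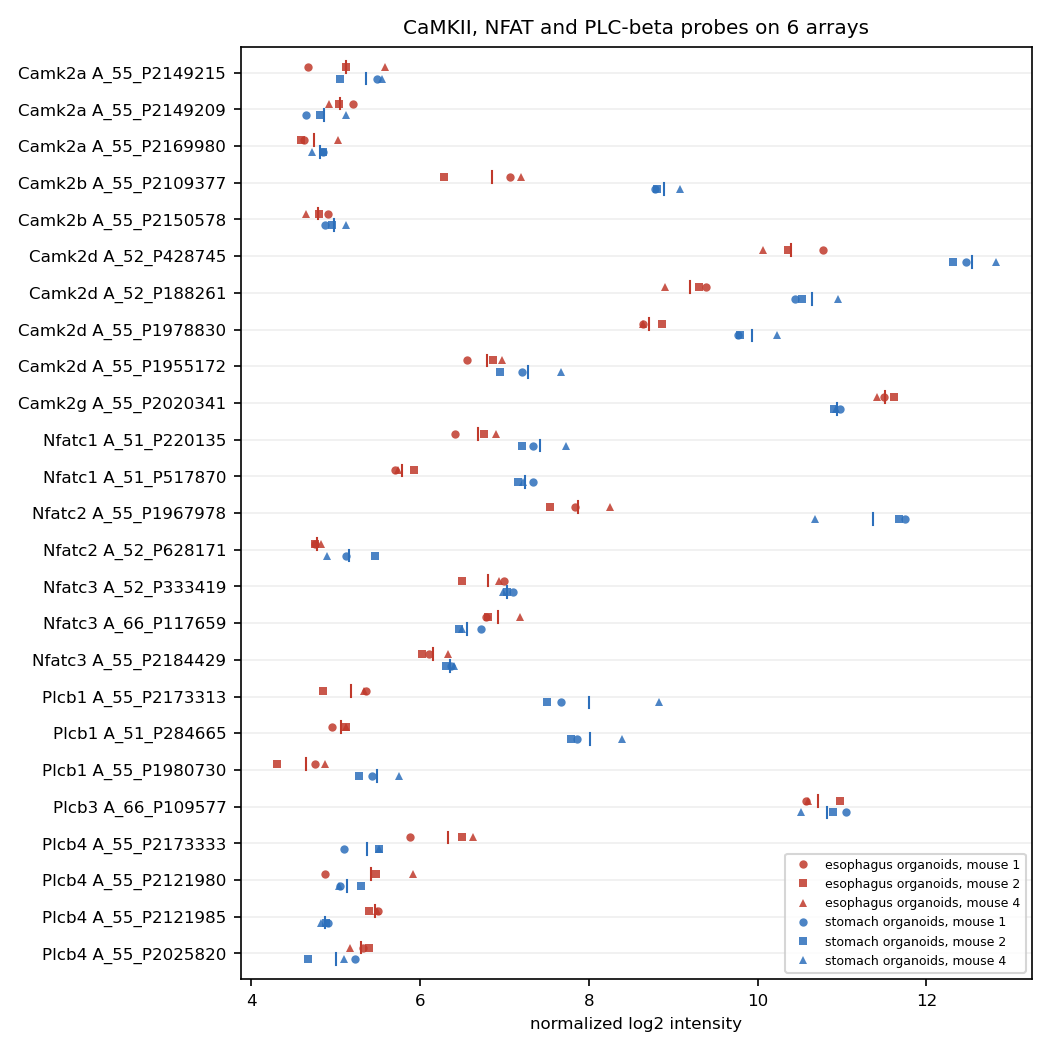
Normalized log2 intensity (x axis) of the 25 probes (rows) on 6 arrays. Red marks are esophagus and blue marks stomach organoids, with a circle for mouse 1, a square for mouse 2, a triangle for mouse 4 and a vertical tick for the mean of 3. The mean ticks of Nfatc2 A_55_P1967978 stand at 7.88 and 11.37.

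Phospholipase C-beta, the enzyme nearest the receptor, differed by isoform: *Plcb1* was higher in the stomach, *Plcb3* was not called, and *Plcb4* was slightly higher in the esophagus, with a call that 8 of 16 alternatives lost. *Plcb1*, a Gq-activated isoform, had 3 probes on chromosome 2 (plus strand, mm9), and all were higher in the stomach. Its reference probe A_55_P2173313 (chr2:135300906-135300965, NM_019677) read 5.36, 4.85 and 5.33 in the esophagus of mice 1, 2 and 4 and 7.67, 7.50 and 8.83 in the stomach. No esophagus array was well above background, all 3 stomach arrays were, and the groups lay far apart. The means were 5.18 ± 0.29 (SD, n = 3) and 8.0 ± 0.72 (SD, n = 3). The stomach mean was thus at least 6.63-fold above that of the esophagus (limma adjusted p = 0.00145). That bound sets the stomach mean against the higher of the probe's own value and the lowest value well above background on each esophagus array, and it holds for the deposited values alone. The fitted difference was -2.03 with an offset of 50 and -5.02 with scaling to the 75th percentile. The second probe, A_51_P284665 (chr2:135190506-135190565), read 4.95, 5.13 and 5.12 in the esophagus and 7.87, 7.80 and 8.39 in the stomach. It gave a bound of at least 7.64-fold (limma adjusted p = 4.26e-05), with fitted differences of -2.04 and -4.76 under the same alternatives. In both probes the stomach of mouse 4, harvested a day earlier, was the highest array. The third probe, A_55_P1980730 (chr2:135213554-135213613, NM_001145830), was well above background on 2 of 3 stomach arrays and no esophagus array. It read 4.76, 4.30 and 4.88 in the esophagus and 5.43, 5.28 and 5.76 in the stomach, at least 1.40-fold higher there (limma adjusted p = 0.0374), with fitted differences of -0.43 and -2.63 under these alternatives. This last call was lost when any array other than that of the esophagus of mouse 4 was left out (adjusted p = 0.0595 to 0.114).

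*Plcb3*, the isoform that G protein beta-gamma dimers also activate strongly, was bright and showed no detectable difference. Its only probe, A_66_P109577 (chr19:7028280-7028339, minus strand), read 10.57, 10.97 and 10.60 in the esophagus and 11.05, 10.90 and 10.51 in the stomach. The groups overlapped, and the log2 fold change was -0.10 with a 95% interval from -0.56 to 0.36 (limma adjusted p = 0.83). Its sign turned when the arrays were scaled to their 75th percentile or the stomach of mouse 1 was left out (0.084 and 0.012).

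*Plcb4*, an isoform known from neurons of the cerebellum and retina, was higher in the esophagus on its reference probe. That probe, A_55_P2173333 (chr2:135840255-135840314, plus strand), read 5.89, 6.50 and 6.63 in the esophagus and 5.10, 5.52 and 5.51 in the stomach. All 6 arrays were well above background and the groups did not overlap. The difference was 0.96 ± 0.23 (standard error; limma adjusted p = 0.0342, and 0.0178 with the mouse as a block). Each mouse showed the direction, with differences of 0.78, 0.98 and 1.12. The call was lost without the stomach of mouse 1, 2 or 4 (adjusted p = 0.14, 0.0886 and 0.0515) or the esophagus of mouse 2 or 4 (0.111 and 0.0865), when the arrays were scaled to their 75th percentile (a difference of 1.22, adjusted p = 0.0677) and with an offset of 50 (0.57, 0.0687). A second probe, A_55_P2121985 (chr2:135838745-135838804), passed the test at means of 5.46 and 4.88 (limma adjusted p = 0.0264) although no array was well above background, and it therefore gets no fold. With the mouse as a block its adjusted p was 0.0735, and without any 1 array it was 0.0576 to 0.093. The other probes, A_55_P2121980 and A_55_P2025820, had adjusted p of 0.582 and 0.409, the first well above background on 2 esophagus arrays and the second on none.

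CaMKII is built of subunits from 4 genes, and all arrays detected 3 of them. *Camk2d* was higher in the stomach on all probes that were called, *Camk2b* was higher in the stomach on its detected probe, and *Camk2g* was higher in the esophagus, with a call that 9 of 16 alternatives lost. *Camk2d* had 4 probes on chromosome 3 (plus strand), each well above background on all 6 arrays. The reference probe A_52_P428745 (chr3:126547685-126547744, NM_001025439) read 10.78, 10.36 and 10.07 in the esophagus of mice 1, 2 and 4 and 12.47, 12.32 and 12.83 in the stomach. The difference, -2.14 ± 0.23 (standard error), is 4.39-fold (limma adjusted p = 0.000622). A_52_P188261 and A_55_P1978830, which lie closer to the start of the same transcript, gave -1.44 (limma adjusted p = 0.00287) and -1.21 (0.00336). For these 3 probes the lowest stomach array was above the highest esophagus array, and the gap within a mouse was widest in mouse 4 (-2.76, -2.05 and -1.58).

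The fourth *Camk2d* probe did not follow to the same extent. A_55_P1955172 (chr3:126543318-126543377), which the files assign to the Ensembl transcript ENSMUST00000169051.7, read 6.56, 6.87 and 6.98 in the esophagus and 7.21, 6.95 and 7.67 in the stomach. The groups overlapped, with a log2 fold change of -0.48 and a 95% interval from -0.99 to 0.034 (limma adjusted p = 0.243). Whether the probes of one gene differ in their tissue difference was not tested.

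*Camk2b* was higher in the stomach as well. Its reference probe A_55_P2109377 (chr11:5869675-5869734, minus strand, NM_001174053) read 7.06, 6.29 and 7.20 in the esophagus and 8.79, 8.81 and 9.08 in the stomach. All arrays were well above background and the groups were far apart. The difference was -2.04 ± 0.25 (standard error), or 4.11-fold (limma adjusted p = 0.00142), and it lay between -2.40 and -1.73 over all settings tried. The second probe on the same transcript, A_55_P2150578 (chr11:5872636-5872695), stayed at background on all 6 arrays, at means of 4.79 and 4.99 (limma adjusted p = 0.514). The result on *Camk2b* thus rests on the probe at base 3944 of the transcript, and the probe at base 1554 gave no usable signal.

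*Camk2g* was bright on all arrays and modestly higher in the esophagus. Its only probe, A_55_P2020341 (chr14:21554122-21554181, minus strand), read 11.50, 11.62 and 11.42 in the esophagus and 10.98, 10.91 and 10.93 in the stomach. The arrays of each tissue were tightly grouped and did not overlap, and all 3 mice showed the direction. The difference was 0.57 ± 0.14 (standard error), or 1.49-fold (limma adjusted p = 0.0327), which is under the 1.5-fold of the methods' rule. With the mouse as a block the adjusted p was 0.0831. The call was also lost without the stomach of mouse 1, 2 or 4 (adjusted p = 0.106, 0.117 and 0.0633) or the esophagus of mouse 1 or 2 (0.0679 and 0.107), with scaling to the 75th percentile (0.185) and with trend and robust variances (0.112). *Camk2a*, the neuronal alpha subunit, was near background. Its reference probe A_55_P2149215 was well above background on 1 esophagus and 2 stomach arrays, at means of 5.13 ± 0.45 (SD, n = 3) and 5.37 ± 0.27 (SD, n = 3) (limma adjusted p = 0.662), and its other probes, A_55_P2149209 and A_55_P2169980, on none.

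**Figure D2:**
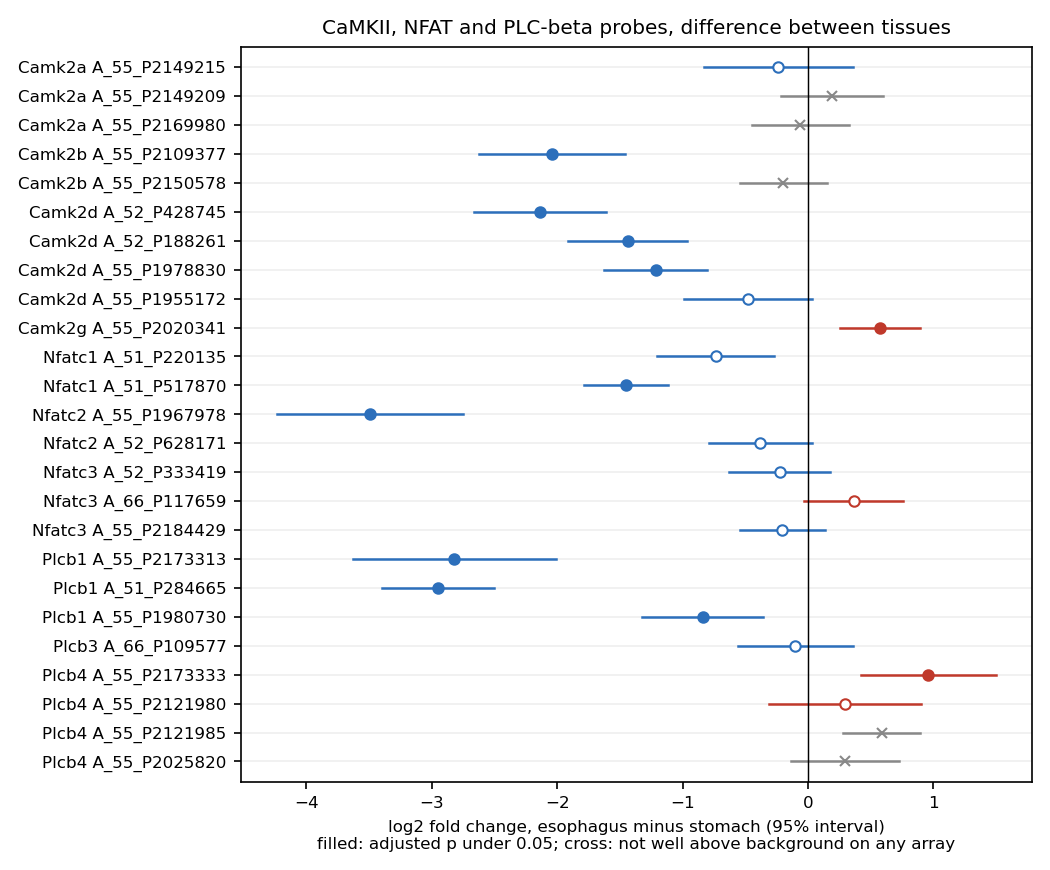
Log2 fold change, esophagus minus stomach, of each of the 25 probes (rows), with bars for the 95% interval of limma. Filled circles are called, red for higher in the esophagus and blue for higher in the stomach. Gray crosses are the 5 probes without a signal well above background, of which Plcb4 A_55_P2121985 was called. The filled points run from -3.49 for Nfatc2 A_55_P1967978 to 0.96 for Plcb4 A_55_P2173333, and the values of the Plcb1 probes are fitted ones, not bounds.

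NFAT proteins carry the calcium signal to DNA, and of the 3 isoforms *Nfatc2* had the largest difference between the tissues. Its reference probe A_55_P1967978 (chr2:168301974-168302033, minus strand, NM_001136073) read 7.83, 7.54 and 8.26 in the esophagus of mice 1, 2 and 4 and 11.75, 11.68 and 10.68 in the stomach. Every array was well above background, and the nearest arrays of the 2 tissues, both from mouse 4, were still far apart. The means were 7.88 ± 0.36 (SD, n = 3) and 11.37 ± 0.60 (SD, n = 3), a difference of -3.49 ± 0.32 (standard error) or 11.3-fold (limma adjusted p = 0.000274). Within mice the differences were -3.92, -4.14 and -2.42. The last is from mouse 4, whose stomach organoids were harvested on day 7 and whose esophagus array was alone on slide 2. The other probe, A_52_P628171 (chr2:168361757-168361816) lies at base 1601 of NM_001037177. It was well above background on 1 stomach array and on no esophagus array, at means of 4.78 and 5.16 (limma adjusted p = 0.249).

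*Nfatc1* is measured by probes on different transcripts, and these gave different calls. The reference probe A_51_P220135 (chromosome 18, minus strand, NM_016791) read 6.42, 6.76 and 6.90 in the esophagus and 7.34, 7.21 and 7.73 in the stomach. These groups did not overlap, but the log2 fold change of -0.74 had a limma adjusted p of 0.0543. The probe A_51_P517870 on NM_198429 read 5.70, 5.93 and 5.74 in the esophagus and 7.34, 7.16 and 7.22 in the stomach. It was well above background on all 6 arrays and was called, with a difference of -1.45 ± 0.14 (standard error) or 2.73-fold (limma adjusted p = 0.00045). That difference was -1.0 with an offset of 50 and -2.28 with scaling to the 75th percentile, called in both. The reference probe was called when dim probes were left out (limma adjusted p = 0.0484) and by the methods' rule. With mean intensities and an offset of 16 it was called as well (-0.71, limma adjusted p = 0.046). Keeping outlier spots, on the same mean intensities and offset, gave -0.70 (limma adjusted p = 0.0477). The call was thus already gained with the outlier spots left out.

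*Nfatc3*, a widely expressed isoform, was detected on all arrays by 3 probes on chromosome 8 (plus strand), and none was called. The reference probe A_52_P333419 (chr8:108615965-108616024) read 6.99, 6.50 and 6.93 in the esophagus and 7.10, 7.03 and 6.98 in the stomach. Its log2 fold change was -0.23 with a 95% interval from -0.63 to 0.18 (limma adjusted p = 0.513). A_55_P2184429 gave -0.20 (limma adjusted p = 0.48) and A_66_P117659, at base 5892 of the same transcript as the reference probe, gave 0.36 (0.251). The last of these had all esophagus arrays above all stomach arrays, with the nearest pair at 6.79 and 6.72.

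Whether isoforms of one family differed in their tissue difference was asked directly, by taking the difference of 2 reference probes on each array and comparing it between tissues. Of 12 pairs, 9 did not overlap between the tissues, 4 of 6 in CaMKII, 2 of 3 in NFAT and 3 of 3 in PLC-beta. The share among pairs of other genes was not measured, so this count has no background. The pairs also reuse the same 10 reference probes. With 3 arrays against 3, the smallest two-sided p of an exact permutation test is 0.1, which these 9 pairs had (0.133 after Benjamini-Hochberg adjustment over 12 pairs), so no pair could pass 0.05. *Nfatc2* against *Nfatc3* changed by -3.27 (95% interval -4.23 to -2.30), and *Camk2d* against *Camk2g* by -2.71 (-3.40 to -2.02). *Camk2b* against *Camk2g* changed by -2.62 (-3.60 to -1.63). *Camk2b* and *Camk2d* did not differ detectably from each other, with a change of 0.10 and an interval from -0.92 to 1.11 (exact p = 0.9). Nor did *Nfatc1* and *Nfatc3*, at -0.51 with an interval from -1.35 to 0.33 (exact p = 0.3). The pairs with *Camk2a* or *Plcb1* rest on a probe that was not well above background on some or all arrays of a tissue. The fitted change of *Plcb1* against *Plcb4* was -3.78 (-5.19 to -2.37), and it ran from -6.24 with scaling to the 75th percentile to -2.59 with an offset of 50. With that scaling 7 pairs did not overlap, since the tissues then overlapped for *Camk2a* against *Camk2b* and against *Camk2d* (exact p = 0.3 and 0.4).

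**Figure D3:**
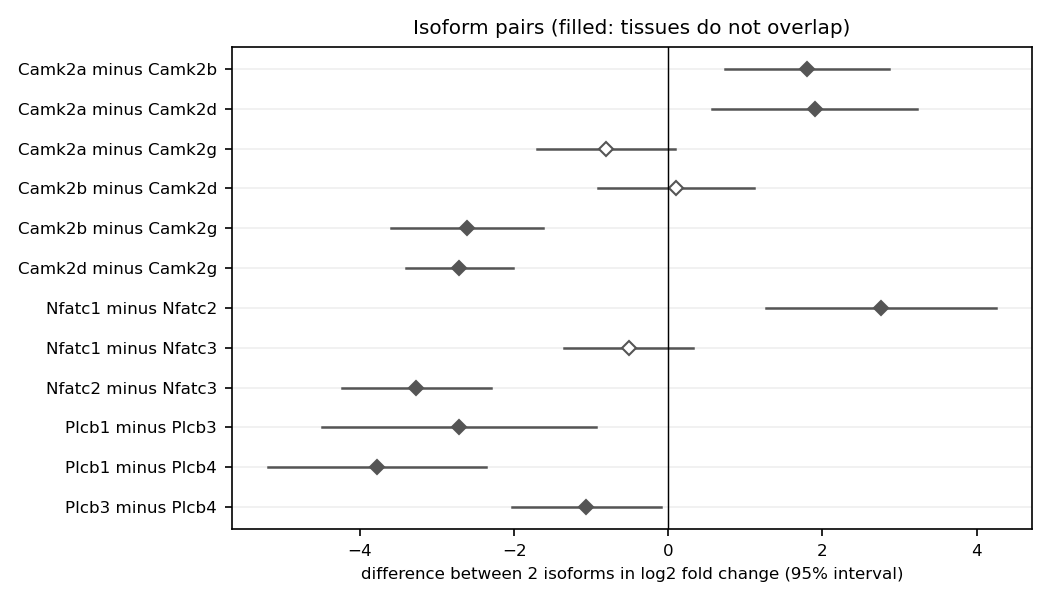
Change of the difference between 2 isoforms of a family, esophagus minus stomach (x axis, log2), for 12 pairs of reference probes, with bars for the 95% interval over 3 arrays a tissue. Filled diamonds are the 9 pairs whose values did not overlap between the tissues. Camk2b minus Camk2d sits at 0.10 and Nfatc2 minus Nfatc3 at -3.27, and the pairs with Plcb1 or Camk2a rest on dim probes.

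Around these families, 74 other genes of the pathway in 11 lists were read in the same fit, each by its reference probe. Of these, 17 were called toward the esophagus and 14 toward the stomach, against 7.15% and 7.7% of all gene names, and 43 were not called. The median log2 fold change of the 74 was 0.029, beside 0.032 over all reference probes. Both directions occurred at most steps of the route from ligand to kinase.

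At the cell surface, 2 of 4 ligands and 2 of 9 receptors were higher in the esophagus and 3 receptors in the stomach. *Wnt4* had a log2 fold change of 6.93 (limma adjusted p = 3.1e-07), and *Wnt5b*, at background in the stomach, exceeded it at least 2.09-fold in the esophagus. *Wnt5a*, the ligand most often tied to the calcium branch, read 9.60, 8.11 and 9.01 in the esophagus and 8.57, 8.39 and 7.85 in the stomach and was not called (limma adjusted p = 0.369). Of the receptors, *Fzd2* (2.37) and *Fzd6* (1.72) were higher in the esophagus, and *Fzd4* (-2.28) and *Fzd5* (-1.58) in the stomach. *Ror2*, a receptor tyrosine kinase for WNT5A, was not well above background in the esophagus and at least 29.5-fold higher in the stomach (limma adjusted p = 1.26e-06).

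Of 7 G protein subunits, *Gna14*, a member of the Gq class, was called, at background in the esophagus and at least 2.13-fold above it in the stomach. The Gq and G11 alpha subunits themselves were bright and not called: *Gnaq* read 10.72 ± 0.28 and 10.80 ± 0.25, and *Gna11* 11.79 ± 0.33 and 12.52 ± 0.22 in the esophagus and stomach (SD, n = 3 each). With the mouse as a block, *Gna11* was called (adjusted p = 0.0397). Other phospholipases C were called in both directions too. *Plch2* (4.33), *Plcd1* (2.71), *Plcg2* (1.96) and *Plcg1* (1.0) were higher in the esophagus, *Plch1* (-4.79, detected on 2 of 3 esophagus arrays) was higher in the stomach, and *Plce1* was at least 9.66-fold higher there. *Plcb2*, the remaining beta isoform and one of taste and blood cells, stayed at background on all 6 arrays.

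Between the phospholipase and the kinases lie the calcium stores and calmodulin. The inositol trisphosphate receptors, the channels that release stored calcium, differed by isoform: *Itpr1* was lower in the esophagus (-1.87, limma adjusted p = 0.000543), *Itpr2* was higher (2.70, 3.96e-05), and *Itpr3* was not called (-0.71). *Atp2a3*, a pump that refills the stores, had at least 43.5-fold more signal in the stomach, whereas the widespread pump *Atp2a2* was not called (-0.49). *Orai3*, a channel for calcium entry, was lower in the esophagus (-1.05), and the other ORAI and STIM genes were not called. *Calml3*, a calmodulin-like protein of stratified epithelia, read 15.33, 14.34 and 13.36 in the esophagus. It stayed at background on all stomach arrays, and the means were at least 763-fold apart. *Calm3* was lower in the esophagus (-1.17), and *Calm2* was not called (-0.50).

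Downstream, the inhibitor of CaMKII moved in the same direction as the subunits of the stomach. *Camk2n1*, which blocks the active kinase, read 7.63, 6.01 and 5.84 in the esophagus and 9.35, 9.31 and 8.79 in the stomach, a log2 fold change of -2.66 (limma adjusted p = 0.00717), and its relative *Camk2n2* was not called (0.53). Among other calmodulin-dependent kinases, *Camk1* was higher in the stomach (means of 5.45 and 6.82, with 1 of 3 esophagus arrays well above background). *Camk4* had at least 2.53-fold more signal in the esophagus, where 2 of 3 arrays detected its reference probe. The other *Camk4* probes stayed at background on all arrays and were not called. *Camkk2* was higher in the esophagus by 0.76 (adjusted p = 0.0906 with the mouse as a block). Calcineurin, which acts on NFAT, had 1 of its 3 catalytic subunits, *Ppp3ca* (0.82), and its regulatory subunit *Ppp3r1* (0.57) higher in the esophagus, the latter not with the mouse as a block (adjusted p = 0.102). The other catalytic subunits, *Ppp3cb* (0.07) and *Ppp3cc* (-0.14), were not called. *Akap5*, which anchors calcineurin at the membrane, was higher in the stomach (means of 5.13 and 7.13, with 1 of 3 esophagus arrays well above background), and *Rcan1*, a target and inhibitor in the NFAT route, was not called (-0.44). *Csnk1a1*, a casein kinase that phosphorylates NFAT, was higher in the esophagus (1.18), as were *Nfat5* (1.31), which calcineurin does not control, and *Prkcb*, a diacylglycerol-activated kinase, at least 8.22-fold. In the TAK1-NLK arm, which CaMKII can start, *Tab1* was higher in the stomach (-1.49) and *Nlk* was not called (0.22).

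**Figure D4:**
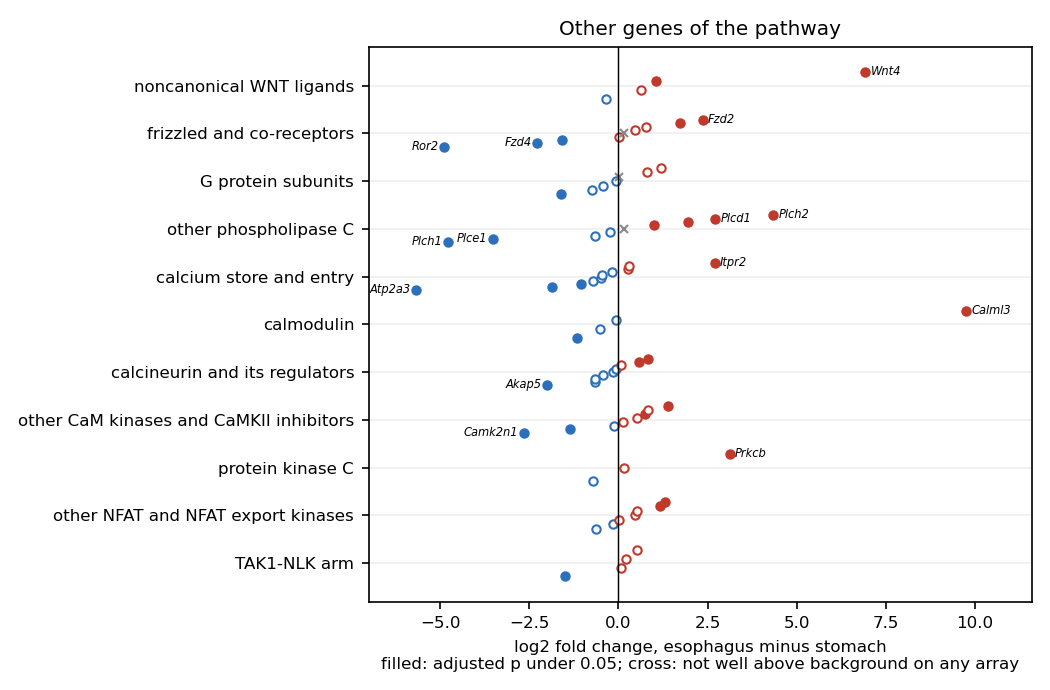
Log2 fold change, esophagus minus stomach (x axis), of 74 other genes of the pathway, 1 point for the reference probe of each gene, by list (rows). Filled points are the 31 called genes, red for the esophagus and blue for the stomach, gray crosses are 3 genes not well above background on any array, and genes called beyond 2 in either direction are named. Points on both sides of 0 are filled in 6 of the 11 rows.

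For each member that all 6 arrays detected on its reference probe, the 3 genes with the most similar profile were sought among 11492 genes, by the root mean square distance of the 6 log2 values after centring. This is a description over 6 arrays that share 1 contrast. The nearest gene to *Camk2b* was *Itpr1*, itself on the list of calcium store genes, at a distance of 0.14, followed by *Gstt3* and *Golph3l*. *Galnt7* (0.12), *Tdrd7* and *Spats2l* lay nearest to *Camk2d*, and *D330050I16Rik* (0.034), *Fam117b* and *Trappc8* to *Camk2g*. *Sfta2* (0.16), *Cd14* and *9530082P21Rik* were most like *Nfatc2*, and *Mospd2* (0.046), *Creld2* and *Ankmy2* most like *Nfatc1*. The nearest genes were *Alkbh4* (0.057), *Ears2* and *Rbbp9* for *Nfatc3*, *Cipc* (0.065), *Irf1* and *Zfp276* for *Plcb3*, and *Nxn* (0.085), *Rps6ka4* and *Eogt* for *Plcb4*.

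Since *Camk2b*, *Camk2d*, *Nfatc2* and *Plcb1* were higher in the stomach together on their reference probes, their promoters are shown, as the 250 bases before a transcription start in RefSeq (GRCm38.p6). Capitals mark GGAAA, the core that NFAT binds, or its reverse TTTCC, of which that of *Camk2b* holds none. For *Nfatc2* the start of 2 with more matches was taken.
Camk2b chr11:6065749-6065998, minus strand: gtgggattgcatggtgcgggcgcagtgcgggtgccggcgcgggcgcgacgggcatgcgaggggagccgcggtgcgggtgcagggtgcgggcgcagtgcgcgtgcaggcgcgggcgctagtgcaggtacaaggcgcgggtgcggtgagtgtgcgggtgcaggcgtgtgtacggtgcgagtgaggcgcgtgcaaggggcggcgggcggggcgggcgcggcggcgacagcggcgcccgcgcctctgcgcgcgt
Camk2d chr3:126596701-126596950, plus strand: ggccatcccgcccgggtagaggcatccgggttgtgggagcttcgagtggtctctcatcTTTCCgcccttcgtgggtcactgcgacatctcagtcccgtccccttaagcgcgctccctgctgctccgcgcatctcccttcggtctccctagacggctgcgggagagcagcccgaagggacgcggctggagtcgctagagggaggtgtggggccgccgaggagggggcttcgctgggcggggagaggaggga
Nfatc2 chr2:168601658-168601907, minus strand: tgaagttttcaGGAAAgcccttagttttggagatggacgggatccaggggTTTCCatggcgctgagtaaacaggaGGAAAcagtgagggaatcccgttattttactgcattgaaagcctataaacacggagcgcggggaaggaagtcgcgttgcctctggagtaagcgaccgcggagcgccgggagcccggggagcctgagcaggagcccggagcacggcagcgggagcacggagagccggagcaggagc
Plcb1 chr2:134785914-134786163, plus strand: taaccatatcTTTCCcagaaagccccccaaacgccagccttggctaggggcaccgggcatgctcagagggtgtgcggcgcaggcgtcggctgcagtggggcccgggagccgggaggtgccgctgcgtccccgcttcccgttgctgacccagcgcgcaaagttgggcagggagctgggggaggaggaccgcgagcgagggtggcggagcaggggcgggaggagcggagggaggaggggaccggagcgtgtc

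RefSeq entries of 7 member genes, 10 promoters in all, were read this way. GGAAA or TTTCC was in 7 of the 10 and in 55.6% of 32851 mouse promoters, so the match is a common one. CTTTGA, a core of TCF and LEF factors, or its reverse TCAAAG was in 1 of the 10, a promoter of *Nfatc3*, and in 13.8% of all. The motifs do not overlap with each other in these promoters, and a match describes letters, not a bound site.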

How the data were processed

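Total RNA of 6 organoid samples was hybridized to Agilent SurePrint G3 mouse arrays, and the authors took intensities from the scans (Agilent Feature Extraction 11.5.1.1, per the file headers). The deposited table holds log2 values that the authors background corrected and quantile normalized. The deposited scanner files hold raw intensity per spot, flags, gene names, probe sequences and mm9 coordinates. Empty cells of the table (2029) were the outlier-marked spots. In R 4.3.3 with limma 3.58.1, spots of a probe were averaged, and lmFit and eBayes compared 3 esophagus with 3 stomach arrays over all 55681 probes, without a block, with Benjamini-Hochberg adjustment. The self-check ran on simulated data. Labels of the tissues share their numbers, read here as mice, which would pair the arrays by animal. Same-mouse deviations correlated with r = 0.025, 0.012 and -0.0079 across probes, so the mouse block was an alternative. The rule for named genes was all members with every probe, pathway genes that were called, largest first, up to 30, and the 3 most similar genes. *Ppp3r1*, the called pathway gene with the smallest change, and the pathway genes given as not called were named outside it, with their values seen. Members and lists were chosen with earlier results of these data known. With 3 arrays a tissue their number limits the precision. Gene names are those of the files, of which 22392 match a RefSeq symbol. Exon and untranslated region annotation of the probes was not used here. Alternatives were normexp on mean intensities (offsets 16 and 50), scaling to the 75th percentile, outlier spots kept, a filter on dim probes, trend and robust variances, the mouse or slide as a block, each array left out, and the methods' rule of calling. Outlier spots were kept on mean intensities with an offset of 16. That alternative therefore differed from the deposited values in more than the outlier spots. An offset of 15 on median intensities was chosen after seeing the data.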

Additional observations from a re-analysis of the deposited data

How the results depend on the processing

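The 25 member probes were refitted under 15 or 16 alternatives each, 391 fits in all. Direction and call were kept in 352, the call was lost in 30 and gained in 4, and the sign turned in 5. Of the 12 called probes, 8 kept direction and call throughout, namely the probes of *Camk2b*, *Camk2d*, *Nfatc1*, *Nfatc2* and *Plcb1* called with adjusted p under 0.01. The probes called higher in the esophagus, 3 in the report, were 1 with scaling to the 75th percentile, 1 with the mouse as a block and 1 with the slide as a block, and 0 to 1 with each array left out. Slide 2 held the esophagus array of mouse 4 alone, so the slide block equals leaving it out. Scaling to the 75th percentile moved the median of all probes from 0.024 to 0.19 and the members' split from 3 of 12 to 1 of 10 called higher in the esophagus. Under it the signs of *Camk2a* A_55_P2169980 (0.22), *Plcb3* (0.084) and the pair *Camk2b* minus *Camk2d* (-0.51) turned, none of them called. With each array left out, *Camk2a* A_55_P2169980 ran from -0.20 to 0.017, *Plcb3* from -0.25 to 0.012 and *Camk2b* minus *Camk2d* from -0.25 to 0.35. The mouse as a replicate block lost *Camk2g* (adjusted p = 0.0831) and *Plcb4* A_55_P2121985 (0.0735) and no other member call. With each array left out, all called members were 8 to 10, those higher in the stomach 8 to 9, pathway genes higher in the esophagus 11 to 18, and pairs without overlap 9 to 10. Over all probes, calls then ran from 4091 to 7415, 1794 to 3500 of them higher in the esophagus and 2297 to 3915 in the stomach, the lowest without the stomach of mouse 1. By the methods' rule 5168 probes were higher in the esophagus. Scaling to the 75th percentile left 7 pairs without overlap. The causes were not tested. Signal over background limits *Camk2a*, *Plcb1* in the esophagus and most *Plcb4* probes.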

Other observations

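Of the 74 pathway genes, 35 have 2 or more probes. All probes were called in 7 of them, some in 7 and none in 21, and in no gene were probes called in both directions. *Calml3*, *Calm3*, *Csnk1a1*, *Plce1*, *Plch2*, *Prkcb* and *Wnt4* had all their probes called. In *Camk4*, *Camkk2*, *Fzd2*, *Fzd5*, *Itpr2*, *Orai3* and *Plcg1* the reference probe was called and the other probes were not. The second probe of *Plch2* gave 1.49 where the reference probe gave 4.33, at esophagus means of 6.86 and 12.95. The second probe of *Itpr2*, assigned to the Ensembl transcript ENSMUST00000111673.1, stayed at background on all 6 arrays, whereas the reference probe had means of 12.37 and 9.68. *Orai3* was called on 1 of 3 probes although all were well above background on every array (-1.05, -0.62 and -0.12). Whether probes of one gene differed in their tissue difference was not tested.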
